A study of Mus musculus with 3 samples.

Results

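Box H/ACA small nucleolar RNAs and small Cajal body RNAs are short nuclear guide RNAs, and 51 of the 55536 annotated genes measured here carry one of their mouse gene names. The 51 were chosen by name and annotation alone: 42 genes have a symbol that starts with Snora and a number, 9 have a symbol that starts with Scarna, and the annotated biotype is snoRNA for 44 and scaRNA for 7. Scarna9 and Scarna10 carry the snoRNA biotype, and the symbols Snora43 and Snora16a each have 2 overlapping entries. Many annotated snoRNA genes have only a Gm symbol and fall outside this choice.

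All libraries came from 1 group of bone-marrow-derived macrophages of C57BL/6J mice. The cells had met 100 ng/ml Lipid A, the membrane anchor of bacterial lipopolysaccharide, for 12 hours, had rested after a wash for 12 hours, and had met 100 ng/ml Lipid A a second time for 50 minutes. Total RNA of the chromatin fraction, after removal of ribosomal RNA, was sequenced in 3 libraries, made from 1 µg (replicate 1), 250 ng (replicate 2) and 500 ng (replicate 3) of RNA. The labels give a size range of 250 to 400 without a unit, and most of the RNAs described here are annotated as shorter than 150 bases. The labels name the same donor for the 3 libraries and nothing says that they came from separate cultures, so SDs and p-values cover the spread between these samples alone, which may be technical. With 1 group, every value is a level, and no response to Lipid A could be tested.

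Box H/ACA RNAs fold into hairpins whose loops pair with a target RNA and direct dyskerin, the pseudouridine synthase of the particle, to a chosen uridine. The core proteins dyskerin (Dkc1), Nhp2, Nop10 and Gar1 bind each of these RNAs, most of which are cut from introns of host genes. Small Cajal body RNAs act in Cajal bodies, nuclear bodies where the small nuclear RNAs of the spliceosome are modified, and some of them carry box C/D or both kinds of element. Box C/D RNAs, named Snord in the mouse, guide ribose methylation instead.

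The name group could be recognised in the annotated sequences, which come from the GENCODE M21 transcripts on build mm10 and are written 5′ to 3′ on the RNA strand, with T for U. The box ACA, the letters ACA, stood exactly 3 bases before the 3′ end in 35 of the 42 Snora transcripts (83.3%), in 2 of the 9 Scarna transcripts and in none of the 98 Snord transcripts (0%), against 19.3% of all 1558 annotated snoRNA and scaRNA transcripts. Among snoRNA and scaRNA transcripts of 120 to 150 bases, the length of most Snora RNAs, the share was 26.2%. The hinge box of the family, ANANNA, was found in the middle of 40 of 42 Snora transcripts, but also in that of 80.1% of all 1558. The box C letters TGATGA stood within the first 30 bases of 4 Scarna transcripts (Scarna6, Scarna9, Scarna10 and Scarna17) and of no Snora transcript, against 72 of 98 Snord transcripts and 22.0% of all 1558. The box D letters CTGA stood within the last 15 bases of 5 Scarna transcripts and 3 Snora transcripts, against 30.9% of all 1558. Motifs were searched on the RNA strand only, and a match describes the letters and not a working element.

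Both Snora73 RNAs, the most abundant Snora RNAs of these libraries, are shown first because reads of the pair can be mixed up: capitals mark the positions at which they differ. Snora73a lies at chr4:132352775-132352979 and Snora73b at chr4:132352322-132352526, both on the minus strand of mm10.
Snora73a: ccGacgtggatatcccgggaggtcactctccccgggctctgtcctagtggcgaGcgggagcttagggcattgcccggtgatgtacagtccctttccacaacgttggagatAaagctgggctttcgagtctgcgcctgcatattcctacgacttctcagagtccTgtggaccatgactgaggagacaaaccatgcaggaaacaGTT
Snora73b: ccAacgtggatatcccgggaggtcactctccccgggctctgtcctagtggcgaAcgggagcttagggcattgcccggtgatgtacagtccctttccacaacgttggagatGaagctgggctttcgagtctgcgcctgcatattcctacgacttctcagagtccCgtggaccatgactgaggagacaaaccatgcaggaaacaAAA
The pair shared 198 of 205 bases (96.6%), with 7 mismatches and no gap. The last 3 bases hold 3 of the 7 mismatches.

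The next sequences are those of 3 short RNAs on which the results below turn, with the box ACA in capitals: Snora26 (chr5:74093530-74093650, plus strand), Snora70 (chrX:74272484-74272620, plus strand) and Snora31 (chr14:75847905-75848034, plus strand).
Snora26: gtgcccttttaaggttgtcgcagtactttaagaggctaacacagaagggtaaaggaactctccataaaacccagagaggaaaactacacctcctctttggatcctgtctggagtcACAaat
Snora70: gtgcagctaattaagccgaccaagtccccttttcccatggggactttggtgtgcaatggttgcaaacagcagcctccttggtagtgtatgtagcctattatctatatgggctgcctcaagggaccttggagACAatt
Snora31: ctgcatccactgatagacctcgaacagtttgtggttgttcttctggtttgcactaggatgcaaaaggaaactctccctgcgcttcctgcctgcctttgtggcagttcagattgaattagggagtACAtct
Each ends with ACA and 3 further bases. Their lengths of 121, 137 and 130 bases are close to each other, but their measured values were not, as described below.

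The Cajal body RNAs differ in kind, as their ends show. Scarna13 (chr12:105031075-105031349, minus strand) has ACA at its 3′ end, in capitals. Scarna6 (chr1:87784556-87784820, plus strand) and Scarna9 (chr9:15326264-15326333, minus strand) have TGATGA near the 5′ end and CTGA near the 3′ end, also in capitals.
Scarna13: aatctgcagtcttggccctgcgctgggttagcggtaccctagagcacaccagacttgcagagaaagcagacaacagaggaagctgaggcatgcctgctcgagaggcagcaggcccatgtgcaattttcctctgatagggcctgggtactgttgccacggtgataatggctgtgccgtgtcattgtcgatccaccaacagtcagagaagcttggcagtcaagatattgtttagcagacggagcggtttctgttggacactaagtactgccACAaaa
Scarna6: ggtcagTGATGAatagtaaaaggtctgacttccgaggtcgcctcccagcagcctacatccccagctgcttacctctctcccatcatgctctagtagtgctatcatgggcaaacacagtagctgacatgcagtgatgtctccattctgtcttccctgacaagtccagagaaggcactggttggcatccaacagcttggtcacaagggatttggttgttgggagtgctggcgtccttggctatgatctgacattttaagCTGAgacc
Scarna9: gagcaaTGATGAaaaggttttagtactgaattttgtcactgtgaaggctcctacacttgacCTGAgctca
Of Scarna10 (chr6:125186359-125186683, minus strand), a composite RNA of both kinds in human and a guide to U5 small nuclear RNA there, only the first and the last 20 bases are given.
Scarna10, 5′ end: gccatgTGATGAtatcaagg
Scarna10, 3′ end: tctttggtaatCTGAtggct
Scarna2 (chr3:108554338-108554751, minus strand), a box C/D RNA that guides methylation of U2 in human, has CTGA as its last bases and no TGATGA within its first 30.
Scarna2, 3′ end: accgagcgattctgatCTGA

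The 51 genes differed first of all in how well each could be counted. TPM, a relative level that sums to the same total in every library, divides the expected count, an estimated number of reads, by the effective length, which is the number of positions at which a sequenced fragment could start. CPM is the expected count scaled to the library's total, with no correction for length. The effective length of the 130-base Snora31 was 2.62, 1.23 and 1.26 positions in replicates 1, 2 and 3. That of the 205-base Snora73a was 44.9, 19.8 and 20.6 positions, and that of the 325-base Scarna10 was 158, 91.1 and 95.3. As a result 3 counts, the upper limit that a count of 0 allows, corresponded in replicate 1 to 1.40 TPM for Scarna10, 4.93 TPM for Snora73a, 84.6 TPM for Snora31 and 196 TPM for Snora26. Such limits cover counting error only. Sequencing depth, as the sum of expected counts over genes, was 13897176 in replicate 1, 19597343 in replicate 2 and 19348626 in replicate 3.

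In all 3 libraries, 23 of the 51 RNAs reached 1 TPM or more (45.1%), against 20.2% of all genes. The number was also 23 at 0.1 TPM and at 10 TPM, against 29.6% and 7.75% of all genes. At 1 TPM the share was 3.06% of Snord genes, 3.41% of other snoRNA and scaRNA genes and 2.39% of small nuclear RNA genes. Each of these shares was higher in the read-based tables, as described below. Expected counts are not divided by the effective length, but they went with RNA length, as described below. An expected count of at least 10 in all 3 libraries was reached by 11 of the 51 (21.6%), against 23.4% of all genes. That share, near the background, pools RNAs of unlike length. The 11 were Snora26, Snora68, Snora70, Snora73a, Snora73b, Snora74a, Snora81, Scarna2, Scarna6, Scarna10 and Scarna13. Of the 9 RNAs longer than 150 bases 8 had such counts, and of the 42 RNAs of 150 bases or fewer 3 did. No RNA lay near the threshold of 1 TPM: the lowest library value among the 23 was 18.4 TPM, for Snora64, from an expected count of 0.88 in replicate 1. The lowest library value of each of the other 28 RNAs was listed at 0. Snora24, the least of the RNAs with a mean above 1 TPM, had 0.37, 0 and 0 expected counts.

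Together the 51 RNAs held 0.157%, 0.155% and 0.121% of the expected counts in replicates 1, 2 and 3, a mean of 0.144% ± 0.0202 (SD, n = 3). Their share of TPM was 2.01%, 3.64% and 2.47%, a mean of 2.71% ± 0.837. The 9 RNAs longer than 150 bases held 99.3% ± 0.0950 of the expected counts of the 51 and 80.7% ± 3.54 of their TPM. Scarna10 alone held 60.4% ± 6.70 of the expected counts of the 51. Of the same TPM, Snora RNAs held 57.05% ± 6.57 and Scarna RNAs 43.0% ± 6.57. The order was the other way in read-based TPM, at 43.6% ± 7.53 for Snora and 56.4% ± 7.53 for Scarna RNAs, and in expected counts, at 16.9% ± 4.44 and 83.1% ± 4.44. The 98 Snord genes held 4.95% ± 1.44 of all TPM from 0.0377% ± 0.0208 of all expected counts, and 93 of the 98 had an expected count of 0 in every library. In bulk RNA the number of cells that hold an RNA and its amount per cell cannot be told apart.

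**Figure D1:**
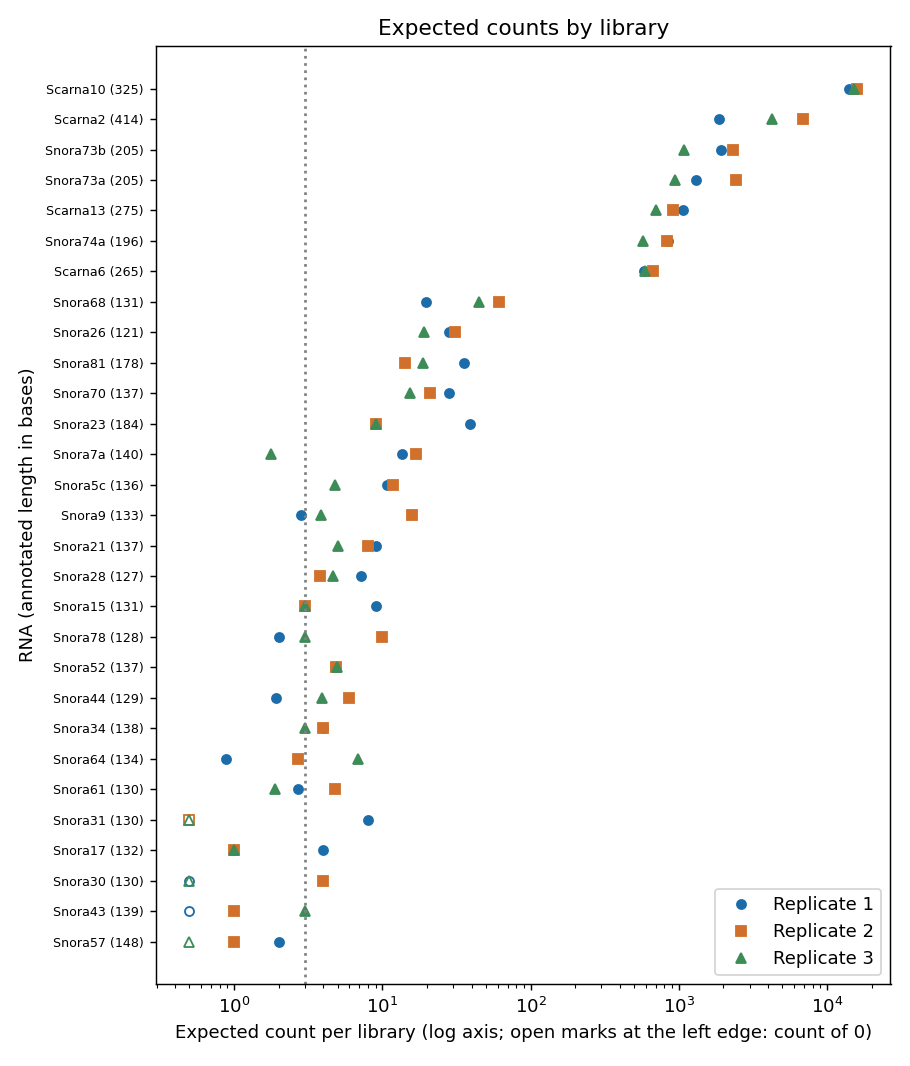
Expected count per library (log axis) of each RNA with a mean of at least 1, ordered by the mean, with its annotated length in bases; the dotted line marks 3 counts and open marks stand for 0. The 7 RNAs of highest count lie above 500 counts in every library, and Snora68, the next, lies at 62 counts or fewer.

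Scarna10 was the highest of the 51 in mean expected count, TPM and read-based TPM. It had 13958, 15954 and 15083 expected counts in replicates 1, 2 and 3. Its level was 6511, 9709 and 9525 TPM, a mean of 8582 ± 1796 (SD, n = 3). It was above each other RNA of the 51 in each library, and its CPM varied least among the 13 RNAs with a mean expected count of at least 10, with a coefficient of variation of 0.140. Ncapd2, a condensin subunit gene whose span holds Scarna10, stood at 3.78 TPM ± 1.88, with Scarna10 overlapping part of an exon.

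Scarna2 was the Cajal body RNA that varied most in CPM among the 4 detected. It had 1876, 6930 and 4222 expected counts in replicates 1, 2 and 3. Its level was 562, 2320 and 1481 TPM, so that replicate 2 stood highest and replicate 1 lowest. CPM followed the same order, at 135, 354 and 218. No annotated gene spans it on its strand.

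Scarna13, a tandem box H/ACA RNA in human, had 1071, 908 and 705 expected counts, and its level was 723, 897 and 722 TPM. In TPM it was the steadiest of the 13 RNAs with a mean expected count of at least 10, at a coefficient of variation of 0.129, but in CPM its coefficient was 0.398. Its annotated host, the noncoding RNA gene Snhg10, had an expected count of 0 in all 3 libraries. Scarna6 had 587, 671 and 591 expected counts and a level of 435, 745 and 680 TPM. Its host Atg16l1, an autophagy gene, stood at 40.1 TPM ± 6.24.

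The other 5 Cajal body RNAs had next to no alignment-based counts. Scarna3a had 1 expected count in replicate 1 and 0 in the others, and Scarna3b, Scarna8, Scarna9 and Scarna17 had 0 in all libraries. Scarna3a and Scarna3b shared 120 identical positions (85.7%), with 19 mismatches and 1 gap. For Scarna9 and Scarna17, of 70 and 79 bases, the alignment-based effective length was 0, so no TPM could be formed from any number of reads.

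Snora73a and Snora73b, also known as U17 or E1, are box H/ACA RNAs needed for the processing of ribosomal RNA precursors toward 18S rRNA. Snora73b had 1930, 2314 and 1088 expected counts in replicates 1, 2 and 3. Its level was 3173, 6473 and 3181 TPM. Snora73a had 1311, 2438 and 946 expected counts, and 2156, 6819 and 2766 TPM. Snora73b was the higher of the pair in replicates 1 and 3 and Snora73a in replicate 2, and the means, 4276 ± 1903 TPM for Snora73b and 3914 ± 2535 TPM for Snora73a (SD, n = 3), differed by less than the spread between libraries. How reads of the 198 shared bases were split between the pair rests on the quantification. The sum of both is free of that split and came to 5329, 13292 and 5947 TPM, or 29.0% ± 6.62 of the TPM of the 51. Both lie in introns of Rcc1 and within the span of the noncoding RNA gene Snhg3, at 2.69 ± 0.484 and 2.84 ± 0.436 TPM. The whole Snora73b sequence also occurs on the opposite strand in transcripts of Gm17300, and the sources used here do not state whether counting used the strand.

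Snora74a, on chromosome 18, had 841, 832 and 571 expected counts and a level of 1650, 2812 and 2020 TPM. Its whole sequence is also part of AC121821.1, a gene at 10.6 TPM ± 0.280, so reads could be split between both entries. Among Snora RNAs, Snora74a and the Snora73 pair were the only 3 with a mean expected count of at least 100.

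**Figure D2:**
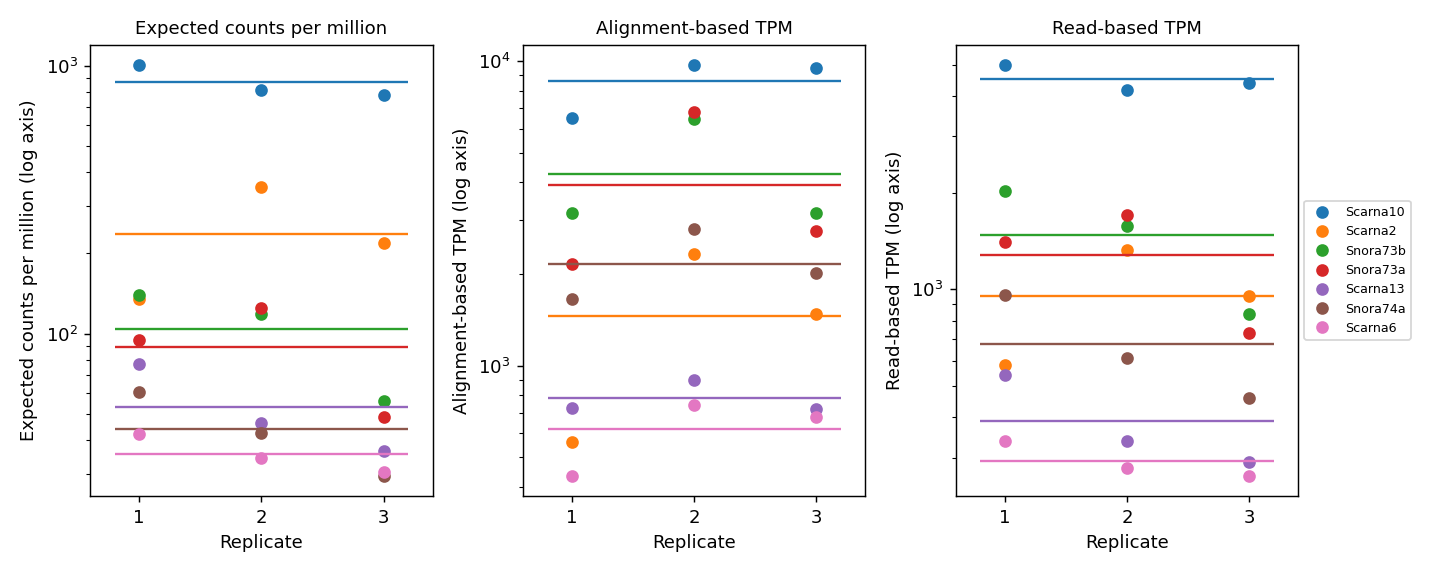
The 7 RNAs with a mean expected count of at least 100, in CPM, alignment-based TPM and read-based TPM (log axes) in each replicate; points are libraries and lines the mean of 3. In alignment-based TPM all 7 were higher in replicate 2 than in replicate 1, while in CPM only Scarna2 and Snora73a were.

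Below these stood short Snora RNAs whose TPM rests on few counts. Snora68, of 131 bases, had 19.6, 61.7 and 44.8 expected counts in replicates 1, 2 and 3. Those counts gave 511, 2580 and 1978 TPM, a mean of 1690 ± 1065, the fifth highest of the 51.

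Snora26, within an exon of the noncoding RNA gene Dancr, shows the other extreme. It had 28.0, 31.0 and 19.0 expected counts, close to each other, but 1834, 0 and 0 TPM, since its effective length was 1.13 in replicate 1 and 0 in replicates 2 and 3. Snora28, within an exon of Eif5, likewise had 7.18, 3.79 and 4.64 expected counts and 261, 0 and 0 TPM. For both, a TPM of 0 means that no level could be formed and not that the expected count was 0. Close copies of Snora26 are annotated as Gm24233 and Gm24988, which together had a mean expected count of 13.7. The count of Snora26 itself is therefore uncertain.

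Snora70, within an exon of Rpl10, had 28.0, 21.1 and 15.3 expected counts and a level of 476, 591 and 451 TPM. Close copies of it are annotated as Gm24706 and Gm26165, which together had a mean expected count of 102, so its own count is uncertain. Snora81, of 178 bases and within an exon of Eif4a2, had 35.7, 14.3 and 18.9 expected counts and a level of 108, 75.4 and 105 TPM. Snora23, of 184 bases and in an intron of Ipo7, had 39, 9 and 9 expected counts and a level of 101, 40.5 and 42.5 TPM, with replicate 1 apart from the other libraries. Snora7a, within an exon of Rpl32, had 13.7, 16.8 and 1.78 expected counts and a level of 193, 393 and 44.0 TPM, with replicate 3 lowest.

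The remaining Snora RNAs among the 10 highest in mean TPM were Snora9, Snora78 and Snora5c. Snora9 had 2.83, 15.8 and 3.87 expected counts and 63.4, 574 and 148 TPM. Snora78 had 2, 10 and 3 expected counts and 66.5, 527 and 167 TPM. In both, replicate 2 stood far above the other libraries on a count of at most 15.8. Snora5c had 10.8, 11.7 and 4.83 expected counts and 196, 349 and 152 TPM.

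In order of mean TPM the highest 8 RNAs were Scarna10, Snora73b, Snora73a, Snora74a, Snora68, Scarna2, Scarna13 and Scarna6. Scarna10 stood above Snora73b in 3 of 3 libraries, and its mean was higher by more than either SD. The means of each other neighbouring pair in this order differed by less than the larger SD of the pair.

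Which library was highest depended on the unit. Among the 13 RNAs with a mean expected count of at least 10, CPM were highest in replicate 1 for 10, in replicate 2 for 3 and in replicate 3 for none. For the 14325 genes with such a mean count these numbers were 4691, 7788 and 1846. In alignment-based TPM the counts of RNAs were 3 for replicate 1, 10 for replicate 2 and none for replicate 3. The counts of genes were 3536, 7809 and 2980 in the same order. The median log2 ratio of replicate 2 over replicate 1 was -0.30 in CPM and 0.77 in TPM for the 13 RNAs, against 0.16 and 0.23 for the 14325 genes with the same count. Replicate 1, with the largest starting amount, also had the longest effective lengths, and the part of either in this order was not tested. In the read-based tables the effective lengths differed less between libraries, at 59.1, 56.6 and 58.9 positions for Snora73a and 166, 143 and 143 for Scarna10. In read-based TPM replicate 1 was highest for 10 of the 13 and replicate 2 for 3. Of the 14325 genes, replicate 1 was highest there for 4152 and replicate 2 for 7745.

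Length went with the expected counts. Across the 51 RNAs, which share the 3 libraries, annotated length and mean CPM had a Spearman correlation of 0.48 (n = 51). Within the 9 RNAs longer than 150 bases it was 0.78 and within the 42 of 150 bases or fewer 0.08. The level of the host gene in TPM had a Spearman correlation of -0.20 with the CPM of the RNA over the 45 RNAs that have a host.

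**Figure D3:**
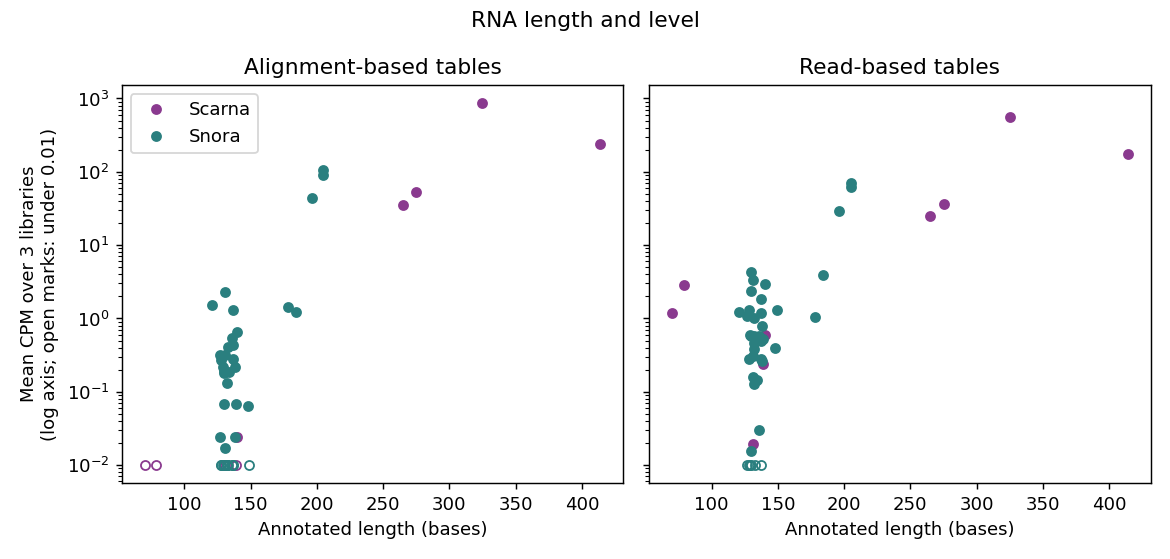
Mean CPM (log axis) against annotated length for the 51 RNAs, in the alignment-based tables on the left and the read-based tables on the right; open marks are means under 0.01. All 7 RNAs above 10 CPM are at least 196 bases long in both kinds of table, and Scarna9 and Scarna17, the 2 shortest, have values above 1 in the read-based tables.

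As medians of log2(mean TPM + 1), Cajal body RNAs stood at 2.51 (n = 9) and Snora RNAs at 5.95 (n = 42), against 0 for all genes and 0 for Snord genes. The difference of the medians of log2(TPM + 1) of Cajal body RNAs minus Snora RNAs was -1.64, -4.37 and -2.70 in replicates 1, 2 and 3. Its mean was -2.90 ± 1.37, with a p of 0.25 (exact two-sided sign-flip permutation test), the smallest that 3 libraries allow. The Cajal body median was 0 in replicates 2 and 3, so there the difference restates the Snora median with its sign changed. Scarna9 and Scarna17 entered at 0, although no TPM could be formed for them. The test therefore decides nothing about the order of the classes. The direction depended on the quantification: the mean difference was 2.70 in the read-based tables and 0.93 with RNAs of a mean expected count of at least 10. Snora minus Snord RNAs came to 4.21 ± 1.44 on the same scale, but the Snord median was 0 in each library, so this value restates the Snora median and is given with no test. In the read-based tables, where the Snord median was above 0, the difference was 1.52 ± 0.55. Over genes with a mean expected count of at least 10, of which the Snord group held 4, it was -3.54.

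The read-based tables, made from the reads and an index of transcripts, listed more of the short RNAs. An estimated count of at least 10 in every library was reached there by 26 of the 51 RNAs (51.0%), against 37.8% of all genes, and a TPM of at least 1 by 40 of the 51, against 32.6% of all genes. At that TPM the share was 78.4% of the 51, 54.1% of Snord genes, 19.3% of other snoRNA and scaRNA genes and 18.9% of small nuclear RNA genes. By alignment, 17 of the 51 RNAs had an expected count of 0 in every library, against 56.8% of all genes. Of these 17, the 4 RNAs Snora41, Snora62, Scarna9 and Scarna17 had a read-based count of at least 10 in every library, which is 7.84% of the 51 against 6.65% of all genes, a share near the background. Among Snord genes 28 of 98 (28.6%) were of this kind. Scarna17 had read-based counts of 109, 59 and 55, and Scarna9 of 10, 61 and 45. Snora31, whose sequence is shown above, had read-based counts of 125, 93 and 132, against 8, 0 and 0 in the alignment-based tables. Snora30 had read-based counts of 25, 114 and 83.5, against 0, 4 and 0. Snora23 had read-based counts of 164, 54 and 75, against 39, 9 and 9. Which kind of table is nearer to the RNA in the cells cannot be read from these files.

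For most of the well-counted RNAs the read-based level was the lower one: it was lower in every library for 9 of 13, against 13.8% of all genes with such counts, and higher in every library for 1, Snora23, against 65.7%. Over the 13 RNAs with a mean expected count of at least 10, the median log2 ratio of read-based over alignment-based (TPM + 1) was -0.62, -1.42 and -1.37 in replicates 1, 2 and 3, with a mean of -1.13 ± 0.45 (SD, n = 3). Over all 14325 genes with such counts it was 0.31 ± 0.03. In CPM plus 1 the medians were -0.39 ± 0.17 for the 13 RNAs and 0.02 ± 0.02 for all genes, a smaller gap than in TPM. Snora70 was at least 2-fold lower in every library, 1 of the 13, against 0.405% of all genes, and none of the 13 was at least 2-fold higher, against 11.5%. Shares of 2-fold lower genes were larger in other small RNA classes. They were 2 of 4 Snord genes, 22 of 40 other snoRNA and scaRNA genes and 16 of 34 small nuclear RNA genes. The read-based level of Snora70 was 120, 33.1 and 36.4 TPM, against 476, 591 and 451 TPM in the alignment-based tables. Scarna10 had a read-based level of 4978, 4153 and 4383 TPM, still the highest of the 51.

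**Figure D4:**
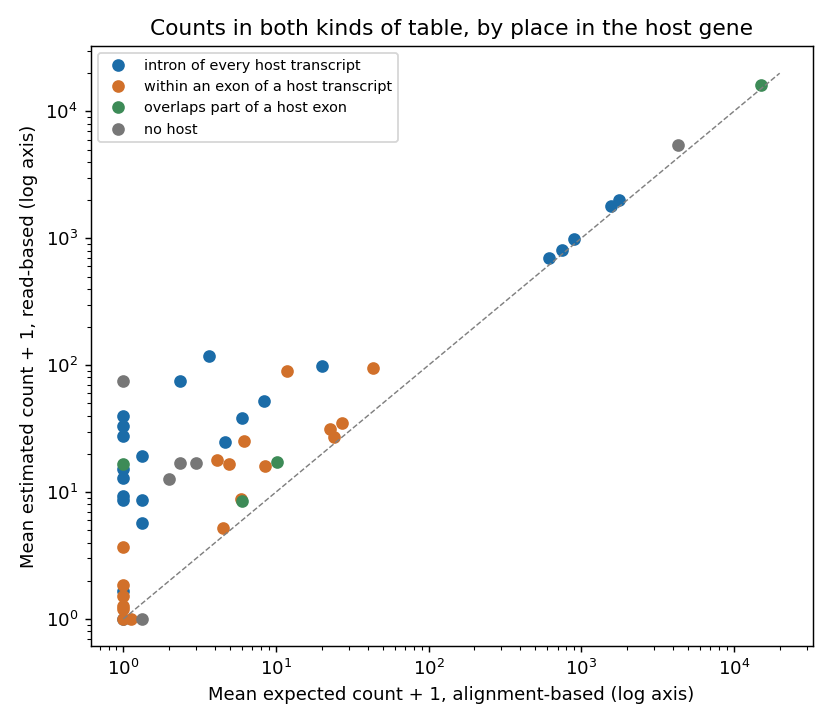
Mean estimated read-based count + 1 against mean expected alignment-based count + 1 (log axes) for each of the 51 RNAs, coloured by its place in the host gene; the dashed line marks equality. The 7 RNAs of highest count lie near the line, and most short RNAs with counts lie above it, among them Snora31 at 116.7 read-based against 2.67 alignment-based counts.

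Hosts were sought as genes on the same strand whose annotated span holds the RNA. Where several genes did, 1 was taken, a protein-coding gene before others and then the longest. By this rule 23 RNAs lay in an intron of every host transcript, 18 within an exon of at least 1 host transcript, 4 overlapped part of a host exon and 6 had no host. For Snora74a, among the 23, the host taken was Gm28285, at 0.127 TPM ± 0.110, and not AC121821.1, which holds its whole sequence. Ribosomal protein genes were the hosts of 11 RNAs, and small nucleolar RNA host genes (Snhg) or Dancr of 9. Among RNAs of 150 bases or fewer, 9 of 17 intronic ones had no alignment-based count in any library and 8 of 17 had a read-based count of at least 10 in every library. For the 17 within an annotated exon these numbers were 6 and 7. An RNA within an exon shares its reads with the host entry, so its level cannot be told apart from that of the host transcript.

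The level of the RNA over that of its host depended on how length was corrected. The median of log2 of the RNA's TPM + 1 over the host's TPM + 1 was 0.95, -1 and -0.53 in replicates 1, 2 and 3 (n = 45 pairs). The mean was -0.19 ± 1.02, with a p of 0.75 (exact two-sided sign-flip permutation test, smallest possible p 0.25). In every library 19 RNAs stood above their host and 18 below it. These TPM values include RNAs set to 0 at an effective length of 0, for which no level could be formed. They are Snora26 and Snora28 in replicates 2 and 3, and Scarna9 in every library. The median of -1 in replicate 2 is the value of Snora26, at 0 TPM, over Dancr, at 1 TPM. With counts divided by annotated length instead, 9 stood above and 32 below in every library, and the mean of the medians was -2.91 ± 0.11. In CPM, with no correction for length, 7 stood above and 37 below, and the mean was -3.27 ± 0.14. Snora73a and Snora73b stood above Rcc1, and Scarna13 and Snora78 had counts while the hosts Snhg10 and Snhg9 were listed at 0. Snora35 and its host Htr2c, a serotonin receptor gene, were both at 0 counts in all libraries.

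Genes of the proteins that act with these RNAs were detected in part. Of the 21 listed genes found for particle, trimming, telomerase and Cajal body proteins, 12 reached 1 TPM in each library, against 8638 of 22028 protein-coding genes. Among the core proteins Dkc1 stood at 6.61 ± 2.04 TPM, Nhp2 at 3.57 ± 0.356 and Gar1 at 3.48 ± 0.306, and Nop10 at 1.08 ± 0.478 did not reach 1 in every library. Of 9 assembly and trimming genes 6 were detected. Exosc10, the nuclear exosome nuclease, was the highest at 18.5 ± 2.41 TPM, and Parn, a deadenylase that trims 3′ ends of such RNAs in human cells, stood at 5.14 ± 1.07. Of 7 Cajal body protein genes 3 were detected: Smn1 at 8.67 ± 2.25 TPM, Nolc1 at 2.39 ± 0.390 and Gemin5 at 1.94 ± 1.05. Coil, which encodes the scaffold protein coilin, stood at 1.37 ± 0.760 TPM, below 1 in replicate 1, and Wrap53, whose protein helps to bring guide RNAs to Cajal bodies, at 0.723 ± 0.177. Terc, the telomerase RNA and itself of the box H/ACA kind, had 1, 10 and 6 expected counts, or 0.29, 3.19 and 2.01 TPM. Tert, the telomerase protein gene, had 0, 0 and 2 expected counts.

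The labelled cell type was checked with markers. All 6 macrophage markers were detected, with a median of 172 TPM, led by Adgre1 (F4/80) at 418 ± 109. Of 17 markers of neutrophils, T cells, B cells, dendritic cells and erythroid cells, 1 was detected, Alas2 at 5.55 ± 1.05 TPM, and the 17 summed to 6.84, 7.39 and 7.79 TPM in replicates 1, 2 and 3. Hbb-bs, Cd3e, Cd3d and Cxcr2 were listed at 0 TPM in all 3 alignment-based tables, but in the read-based tables Cd3d stood at 15.7 ± 3.18 TPM, Cxcr2 at 4.05 ± 0.431 and Alas2 at 13.7 ± 2.99.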

How the data were processed

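RNA of the chromatin fraction was measured in 3 libraries of 1 group. The authors deposited, per library, an alignment-based gene table and a read-based transcript table on mm10 with GENCODE M21, per the file headers and the accompanying text. Neither the programs nor the use of strand is given there. Expected counts, per the file headers, are estimated numbers of reads that may be fractions. TPM, as deposited, corrects them for effective length. The read-based tables hold estimated counts and TPM per transcript, summed here per gene; 86 genes have no read-based entry.

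CPM scales the deposited counts to the sum over all genes. Log2 values were computed here as log2(TPM + 1). Detection meant 1 TPM or more in each library, and the count minimum was 10. Hosts and sequences came from GENCODE M21, and close copies (at least 90% identity over at least 90% of the length) from BLAST 2.17.0. Scripts ran in Python 3.11.15 with pandas 2.3.3, numpy 2.4.6, SciPy 1.17.1, Biopython 1.88 and matplotlib 3.10.9. A 2-fold call was tested on simulated counts and the sign-flip function on fixed values with known answers. Depth is given with the results; limits of 3 counts cover counting error only.

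The RNAs with values were named by a rule: every Scarna RNA, the 10 Snora RNAs highest in mean TPM and in mean count, the extremes of variation and of the ratio between tables, RNAs with counts at an effective length of 0, and those nearest 1 TPM. Snora30, Snora31, Snora35, Snora41 and Snora62 were named after their values were seen. The members and lists were chosen with earlier results of these data known. The values of some host and marker genes are not reported here.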

Additional observations from a re-analysis of the deposited data

How the results depend on the processing

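No paired analysis was possible because the libraries form 1 group. The median of log2(mean TPM + 1) of Cajal body RNAs was 2.51, against 0.0342 on log2(CPM + 1), 10.06 with a mean expected count of at least 10, 5.16 in posterior mean TPM, 7.76 in the read-based tables, and 0 to 3.01 leaving out 1 library, with 0 without replicate 1. That of Snora RNAs was 5.95, against 1.94 with annotated length, 0.207 in CPM, 9.26 with the count minimum and 4.94 to 6.15 leaving out 1 library. Cajal body minus Snora RNAs, -2.90, reversed to 2.70 in the read-based tables and 0.93 with the count minimum. Snora minus Snord RNAs, 4.21, reversed to -3.54 with the count minimum and was 1.52 in the read-based tables. RNA over host, -0.19, reversed to 0.38 in the read-based tables and ranged over -0.763 to 0.21 leaving out 1 library, positive without replicate 2; it was -3.27 in CPM and -2.91 with annotated length. RNAs detected, 23, were 40 in the read-based tables. RNAs with a count of at least 10, 11, were 18 at a minimum of 3 and 26 in the read-based tables. The median of the named RNAs, 7.82, was 3.88 with annotated length and 6.58 in the read-based tables. The ratio of read-based over alignment-based level, -1.13, was -0.39 in CPM and 0 with no count filter. The share of TPM, 2.71%, was 1.18% with annotated length, 1.17% in the read-based tables and 1.85% without Scarna10. The share of counts, 0.144%, was 0.1001% in the read-based tables, 0.177% with 3 ribosomal-RNA-like genes (Gm26917, Gm42418, CT010467.1) left out of the total, and 0.0575% without Scarna10. Leaving out Scarna10 was chosen after seeing the data. The cause of these shifts was not tested. Of 23 named RNAs, 13 moved by at least their SD with annotated length, 16 in the read-based tables and 4 in posterior mean TPM. None did on leaving out 1 library, but that outcome was fixed in advance. Leaving out 1 of 3 values cannot move a mean by as much as their SD. Without replicate 1 the mean TPM of Snora26 went from 611 to 0 and that of Snora28 from 86.8 to 0. Of the 42 RNAs of 150 bases or fewer, 3 had at least 10 expected counts in every library, so the levels of the others rest on few counts.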

Other observations

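Further snoRNA and scaRNA genes with a Gm symbol also had high counts. Gm22009, a scaRNA gene of 343 bases (chr3:69085105-69085447, mm10), had 6801, 11928 and 8780 expected counts in replicates 1, 2 and 3, and Gm25395, a scaRNA gene of 272 bases (chr1:87776938-87777209), had 2732, 2701 and 2493. The snoRNA gene Gm22988, of 144 bases (chr11:69669635-69669778), had 11089, 3536 and 2827, highest in replicate 1. Its level was 124264, 66772 and 56278 TPM, above that of Scarna10 in each library. In all, 40 snoRNA and scaRNA genes outside the names used here and outside the Snord names had a mean expected count of at least 10. The snoRNA and scaRNA genes outside these names, 1409 in all, held 21.3% ± 2.27 of all TPM and 0.154% ± 0.0583 of all expected counts.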
